A study of Homo sapiens with 6 samples.

Results

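The 6 genes described here make up the core of the aryl hydrocarbon receptor (AHR) pathway: AHR, its DNA-binding partner ARNT, its repressor AHRR, and the target genes TIPARP, CYP1A1 and CYP1B1. They were taken by gene symbol from the deposited count table, and all 6 were found among its 19470 rows. The values came from RNA sequencing of A549, a human lung adenocarcinoma cell line labelled wild type. In 3 libraries the cells had been activated with medium from osteoclasts, which resorb bone, and in the other 3 libraries dormancy had been induced. The study asked which genes differ as these tumour cells pass out of dormancy. The labels do not state the method of inducing dormancy or the medium of the dormant cells, so cell state and medium cannot be told apart.

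AHR is a ligand-activated transcription factor of the bHLH-PAS family. Without ligand it sits in the cytoplasm, bound to chaperones that include HSP90 and PTGES3 (p23). Once it binds a ligand, such as a dioxin, a polycyclic hydrocarbon of smoke or a tryptophan metabolite, it enters the nucleus, pairs with ARNT and binds the xenobiotic response element, whose core is GCGTG. In airway and lung cells the pathway is best known for inducing CYP1A1 and CYP1B1, which oxidise polycyclic hydrocarbons. AHRR, which competes for ARNT, and TIPARP, a mono-ADP-ribosyltransferase that modifies AHR, are induced as well and restrain the receptor.

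The windows upstream of the start sites are shown because the core element is the sequence through which AHR is known to act. Whether the element has a part in the changes given below was not tested. A RefSeq promoter entry was found for 5 of the 6 genes, and CYP1B1 had none. Each window holds the 250 bases before the gene's most upstream RefSeq start, in build GRCh38.p14, written 5′ to 3′ on the gene's strand, with GCGTG or its reverse complement in capitals.
AHR, chr7:17298402-17298651, plus strand: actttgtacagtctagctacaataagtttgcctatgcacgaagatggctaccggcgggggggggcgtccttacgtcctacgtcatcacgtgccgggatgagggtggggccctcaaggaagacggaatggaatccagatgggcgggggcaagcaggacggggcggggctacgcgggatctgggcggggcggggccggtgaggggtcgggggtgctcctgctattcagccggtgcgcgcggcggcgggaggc
AHRR, chr5:321464-321713, plus strand: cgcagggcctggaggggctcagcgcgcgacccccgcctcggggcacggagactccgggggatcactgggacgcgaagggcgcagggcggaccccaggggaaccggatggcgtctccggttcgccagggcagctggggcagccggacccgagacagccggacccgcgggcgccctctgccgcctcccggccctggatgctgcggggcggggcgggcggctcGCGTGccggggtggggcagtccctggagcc
TIPARP, chr3:156674340-156674589, plus strand: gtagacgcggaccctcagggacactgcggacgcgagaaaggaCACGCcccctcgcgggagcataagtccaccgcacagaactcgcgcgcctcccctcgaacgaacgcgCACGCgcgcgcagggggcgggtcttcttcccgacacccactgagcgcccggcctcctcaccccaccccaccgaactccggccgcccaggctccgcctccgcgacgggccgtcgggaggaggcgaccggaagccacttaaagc
CYP1A1, chr15:74725529-74725778, minus strand: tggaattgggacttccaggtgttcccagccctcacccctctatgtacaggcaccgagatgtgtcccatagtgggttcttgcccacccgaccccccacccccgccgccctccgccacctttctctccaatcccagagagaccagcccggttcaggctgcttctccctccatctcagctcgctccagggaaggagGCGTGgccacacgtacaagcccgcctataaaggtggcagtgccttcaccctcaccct
ARNT, chr1:150876600-150876849, minus strand: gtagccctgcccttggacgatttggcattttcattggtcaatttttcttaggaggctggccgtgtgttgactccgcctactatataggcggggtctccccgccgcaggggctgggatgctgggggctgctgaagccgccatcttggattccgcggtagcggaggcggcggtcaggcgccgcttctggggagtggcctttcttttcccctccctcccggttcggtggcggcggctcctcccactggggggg

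The windows of TIPARP, CYP1A1 and AHRR held the core, while those of AHR and ARNT did not. TIPARP had 2 matches, CYP1A1 had 1 and AHRR had 1. At later RefSeq starts, a second AHRR window held 2 matches and 2 further TIPARP windows held none. Only the AHRR match, among these 5 windows, was also part of the longer form TNGCGTG. Of the 35116 upstream windows of the same length in the RefSeq table, 32.2% held GCGTG and 4.52% held TNGCGTG on either strand, so a core match is common. The 5 windows printed were 62.4% to 79.2% G and C, against a median of 58% over all windows. The shares were not adjusted for this. The well-studied response elements of CYP1A1 lie further upstream than this window. The AHR window also held CACGTG, the E-box read by other bHLH factors, as did 6.34% of all windows. These matches describe the sequence and are not measured binding.

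Of the 6 genes, 5 were lower in activated cells and none was higher in edgeR's quasi-likelihood test at an adjusted p of 0.05. AHR fell 3.15-fold, AHRR 4.19-fold and CYP1A1 3.19-fold, while TIPARP fell 1.69-fold and CYP1B1 1.16-fold. ARNT was the exception, with a level in activated cells of 98.7% of that in dormant cells. The comparison moved much of the transcriptome: 73.7% of the 13336 genes tested were called in either direction and 37.2% were called lower, against 5 of the 6 genes here. A called fall of at least 2-fold was seen for AHR, AHRR and CYP1A1, against 11% of all genes tested. In AHR, AHRR, TIPARP and CYP1A1 every activated library lay below every dormant library in normalised counts scaled to library size (CPM), as in 38.7% of all genes. The median log2 fold change was -1.20 over the 6 genes and -0.02 over all genes. In bulk RNA, fewer cells that express a gene and less RNA per cell cannot be told apart. All 6 reached the filter on low counts in all libraries of both groups, so none entered the test through 1 group.

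**Figure D1:**
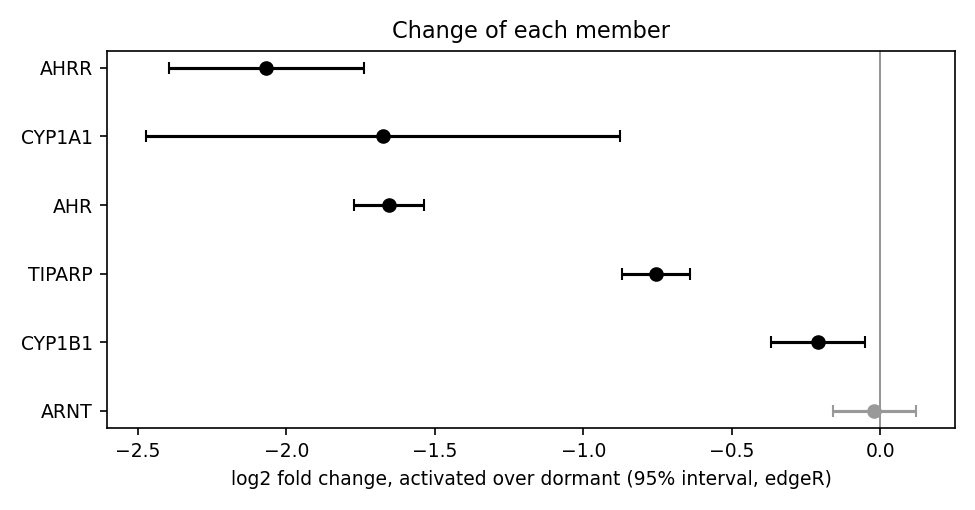
Log2 fold change of each gene, activated over dormant, with its 95% interval from edgeR. Black points passed an adjusted p of 0.05 and the grey point, ARNT, did not; AHRR lies farthest from 0 at -2.07, and the interval of CYP1A1 is the widest.

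Levels between genes were compared in FPKM, the authors' counts scaled by gene length and library total. In activated cells the order was CYP1B1 at 39.9 ± 4.34, TIPARP at 19.9 ± 0.711, ARNT at 14.0 ± 1.11, AHR at 8.60 ± 0.397, AHRR at 0.476 ± 0.0581 and CYP1A1 at 0.162 ± 0.0309 FPKM (SD, n = 3). In dormant cells it was CYP1B1 at 50.8 ± 4.52, TIPARP at 36.9 ± 1.95, AHR at 29.8 ± 0.846, ARNT at 15.7 ± 0.919, AHRR at 2.20 ± 0.261 and CYP1A1 at 0.574 ± 0.0828 FPKM. The ranges of neighbouring genes did not overlap in either group, and the receptor and its partner stood in opposite orders: AHR lay below ARNT in activated cells and above it in dormant cells. By FPKM, AHR exceeded 58.2% of the tested genes in activated cells and 83.7% in dormant cells, whereas ARNT exceeded 69.5% and 70.5%.

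**Figure D2:**
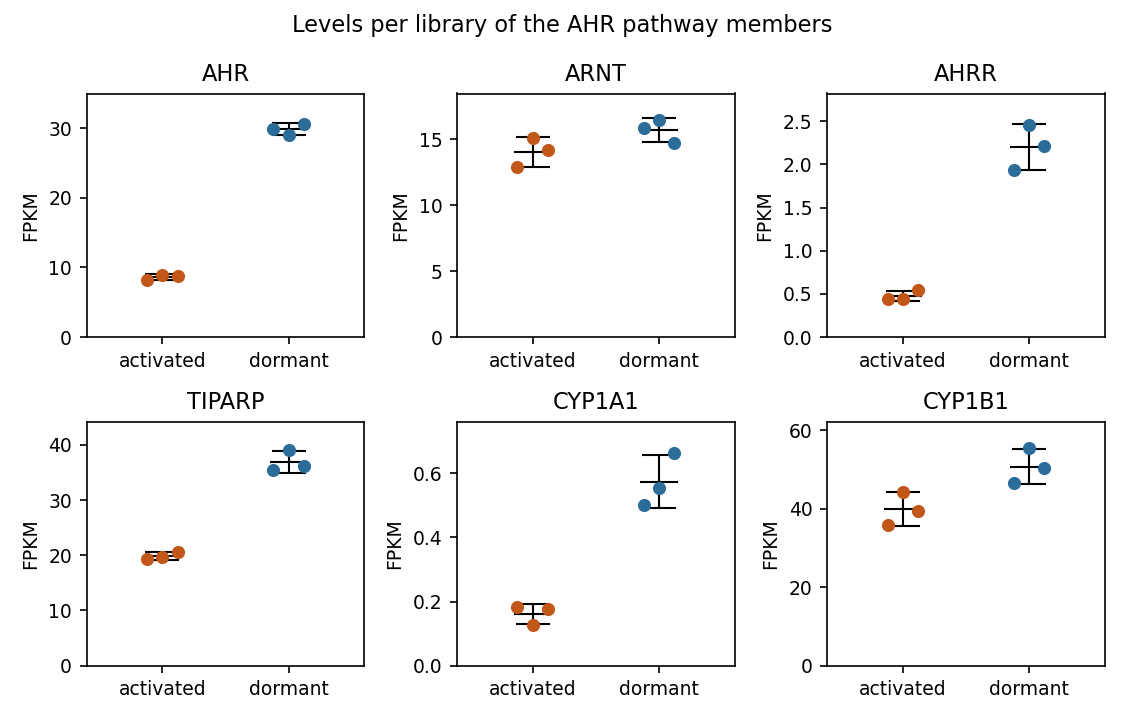
FPKM of each gene in the 3 activated and 3 dormant libraries, 1 panel per gene with its own axis from 0. Points are libraries and the bars give mean and SD; AHR, AHRR, TIPARP and CYP1A1 separate the groups clearly, while ARNT overlaps.

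The receptor itself changed with little spread between libraries. AHR, on chromosome 7 from 17298652 to 17346147, had 8.15, 8.89 and 8.78 FPKM in the activated libraries, against 29.9, 28.9 and 30.6 FPKM in the dormant libraries. The lowest dormant library was thus far above the highest activated library. In CPM, AHR averaged 56.4 ± 2.58 in activated cells and 177 ± 6.25 in dormant cells (SD, n = 3 each). The log2 fold change was -1.65 ± 0.05 (SE, edgeR quasi-likelihood adjusted p = 1.62e-12), and 4.74% of all tested genes had a lower value.

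ARNT, which also pairs with HIF1A and EPAS1 in the hypoxia response, lies on chromosome 1 from 150809713 to 150876599. It had 64.8, 75.9 and 71.4 CPM in the activated libraries, against 73.2, 74.6 and 67.2 CPM in the dormant libraries. The groups overlapped. The log2 fold change was -0.02 with a 95% interval of -0.16 to 0.12 (edgeR quasi-likelihood adjusted p = 0.797), so a change of either sign within that interval could not be resolved. Scaled by total counts alone, the value was -0.16 and passed at an adjusted p of 0.0427. That scaling moved the median of all genes by -0.14, and 39.7% of its calls were higher, against 49.5% here. Over all alternatives the adjusted p of ARNT lay between 0.0427 and 0.993.

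AHRR showed the largest fall of the 6 in this fit. The gene lies on chromosome 5 from 321714 to 438285. It had 90, 93 and 107 counts in the activated libraries, against 398, 515 and 431 counts in the dormant libraries. Every dormant library held more than 3 times the count of any activated library. The log2 fold change was -2.07 ± 0.15 (SE, edgeR quasi-likelihood adjusted p = 1.25e-08), and 2.98% of all tested genes had a lower one. On the log2(FPKM + 1) scale, which understates changes of low genes, it was -1.11.

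TIPARP, also called PARP7, lies on chromosome 3 from 156674590 to 156706770. It had 19.3, 19.6 and 20.7 FPKM in the activated libraries, against 35.5, 39.1 and 36.1 FPKM in the dormant libraries. The groups were well apart, although the change was smaller than that of AHR. In CPM, TIPARP averaged 90.8 ± 3.29 in activated cells and 153 ± 6.65 in dormant cells (SD, n = 3 each), a log2 fold change of -0.75 ± 0.05 (SE, edgeR quasi-likelihood adjusted p = 6.59e-09).

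The CYP1 enzymes were expressed at very different levels. CYP1A1, on chromosome 15 from 74719542 to 74725528, had 17, 12 and 16 counts in the activated libraries, against 47, 53 and 59 counts in the dormant libraries. Every activated library lay below every dormant library, but the level was low in both groups, with 45 and 159 counts in all. The ratio of these sums, scaled by the totals of the groups, was 0.283 with an exact binomial 95% interval of 0.199 to 0.396, which covers counting error only. The edgeR log2 fold change was -1.68 ± 0.37 (SE, quasi-likelihood adjusted p = 0.000925), and on the log2(FPKM + 1) scale it was -0.44. CYP1A2, the other member of the CYP1A subfamily and a liver enzyme, had 0 counts in every library.

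CYP1B1, known for oxidising hydrocarbons and oestrogens outside the liver, was the most highly expressed of the 6 genes per length in both groups. It lies on chromosome 2 from 38067509 to 38076151. It had 196, 243 and 216 CPM in the activated libraries, against 233, 273 and 251 CPM in the dormant libraries. The highest activated library lay above the lowest dormant library, so the groups overlapped in CPM, though not in FPKM. The log2 fold change was -0.21 ± 0.07 (SE, edgeR quasi-likelihood adjusted p = 0.0193). The call ended without activated replicate 1 (log2 fold change -0.13), activated replicate 3 (-0.20) or dormant replicate 2 (-0.15), at adjusted p values of 0.0690, 0.0720 and 0.111, and after a correction for gene length (-0.13, adjusted p = 0.0781). Over all alternatives its adjusted p lay between 0.000612 and 0.111.

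A ratio of 2 genes within a library does not depend on how libraries are scaled to each other. All 5 ratios share AHR as denominator, and AHR fell 3.15-fold, so they are not separate results. TIPARP and CYP1B1 themselves fell and ARNT did not pass, so their higher ratios restate the larger fall of AHR. Relative to AHR, counts per length of ARNT were 1.63 in activated cells and 0.525 in dormant cells, a 3.10-fold higher ratio. The ratio to AHR was 4.62 in activated cells and 1.70 in dormant cells for CYP1B1, and 2.31 and 1.24 for TIPARP. AHRR went the other way, at 0.0551 in activated cells and 0.0735 in dormant cells. In these 4 ratios the groups did not overlap, and the exact two-sided permutation test gave p = 0.1 for each, the smallest value that 3 against 3 libraries allow (adjusted p = 0.125 over 5 ratios). The ratio of CYP1A1 to AHR was 0.0186 in activated cells and 0.0191 in dormant cells (exact permutation p = 0.9), and its groups overlapped. The difference on the log2 scale was -0.04, between SDs of 0.34 in activated and 0.18 in dormant libraries.

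**Figure D3:**
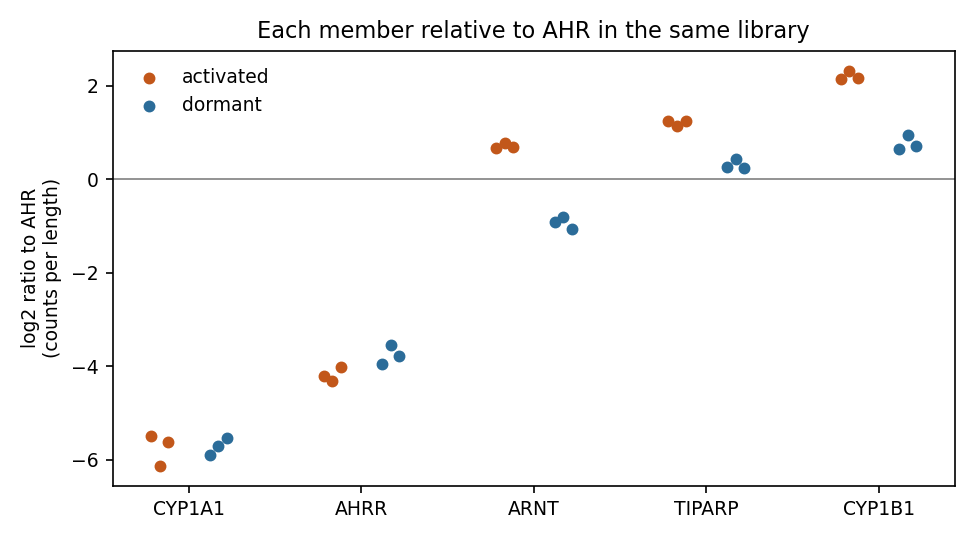
Log2 ratio of each gene to AHR within the same library, from counts per length, with activated libraries to the left of dormant libraries. ARNT, TIPARP and CYP1B1 sit higher relative to AHR in activated libraries, AHRR sits lower, and the CYP1A1 points overlap.

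The proteins that hold and serve the receptor split by role. Of 9 listed chaperone and coactivator genes, 3 rose and 5 fell, with a median log2 fold change of -0.41. HSP90AA1, the inducible cytosolic HSP90, had the largest rise, at 1685 ± 12.4 CPM in activated cells and 611 ± 19.0 CPM in dormant cells, 2.76-fold. HSP90AB1 and PTGES3 were the other genes that rose, named after their values were seen. All 5 genes that fell were transcriptional coactivators, led by the acetyltransferase CREBBP at 50.1% of its level in dormant cells.

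Of the other bHLH-PAS genes, 9 of 13 were tested, of which 2 rose and 6 fell (median -0.41). HIF1A, the oxygen-regulated partner of ARNT, rose to 1253 ± 17.2 CPM in activated cells, against 669 ± 24.1 CPM in dormant cells. EPAS1, the other hypoxia partner named above, fell to 706 ± 25.1 CPM in activated cells, against 1151 ± 67.2 CPM in dormant cells, and was named after its values were seen. ARNT2, a close relative of ARNT, fell 1.27-fold. ARNTL2, a clock gene paralogue, had the largest rise (log2 fold change 1.95) and NPAS1 the largest fall (-2.46).

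Other AHR targets did not share 1 direction. Of 15 listed, 12 were tested, with 4 higher and 6 lower in activated cells and a median of -0.25. NQO1, a quinone reductase also driven by NRF2, fell to 719 ± 34.5 CPM in activated cells, against 1177 ± 14.7 CPM in dormant cells. NFE2L2, which encodes NRF2, had the largest fall, 2.60-fold. ALDH3A1, an aldehyde dehydrogenase, rose 1.51-fold, to 721 ± 9.03 CPM in activated cells against 479 ± 30.7 CPM in dormant cells (SD, n = 3 each; edgeR quasi-likelihood adjusted p = 9.29e-08). The remaining rises, named after their values were seen, were IL1B at 4.91-fold, UGT1A1 at 10.2-fold and UGT1A6 at 2.95-fold. UGT1A1 and UGT1A6 share exons, so their counts are uncertain, and both reached the filter on low counts mainly through the activated libraries.

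Tryptophan catabolism, which makes kynurenine and other AHR ligands, had 8 of 11 listed genes tested, with 2 higher, 2 lower and 4 that did not pass (median -0.02). TDO2, a dioxygenase that opens the tryptophan ring, had 16.3, 18.4 and 18.8 CPM in the activated libraries, against 2.32, 4.76 and 3.66 CPM in the dormant libraries. The groups were far apart, with a log2 fold change of 2.31 ± 0.19 (SE, edgeR quasi-likelihood adjusted p = 3.25e-08). IDO1, which catalyses the same step, had 0 counts in the activated group and 7 in the dormant group. KYNU, kynureninase, had 462 ± 38.6 CPM in activated cells and 492 ± 18.4 CPM in dormant cells and did not pass. KMO and IL4I1 fell and AFMID rose, named after their values were seen, and IL4I1 reached the filter mainly through the dormant libraries.

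Microsomal P450 enzymes, the CYP1 family among them, take electrons from POR, and this reductase fell 2.07-fold, to 111 ± 8.22 CPM in activated cells against 229 ± 17.4 CPM in dormant cells (edgeR quasi-likelihood adjusted p = 1.99e-09). CYB5A, another electron donor, rose 1.75-fold. Of the 5 listed P450 partners and linked enzymes, 2 rose and 2 fell, with 1 rise in place of 2 under total counts or the length correction. Among the 54 other P450 genes in the table, 17 were tested and 10 fell, while 3 rose (median -0.73). CYP2S1, which fell 1.77-fold, and CYP1A2 are also on the list of other AHR targets, so CYP2S1 is counted in both. CYP27C1, a mitochondrial retinoid desaturase, rose 5.30-fold, and CYP4F3, a leukotriene hydroxylase, fell 3.21-fold. Of the 14 tested relatives of TIPARP in the PARP family, 10 fell and 3 rose (median -0.59). PARP1, the DNA damage sensor, rose 2.11-fold and PARP11, like TIPARP a mono-ADP-ribosyltransferase, fell 2.74-fold.

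**Figure D4:**
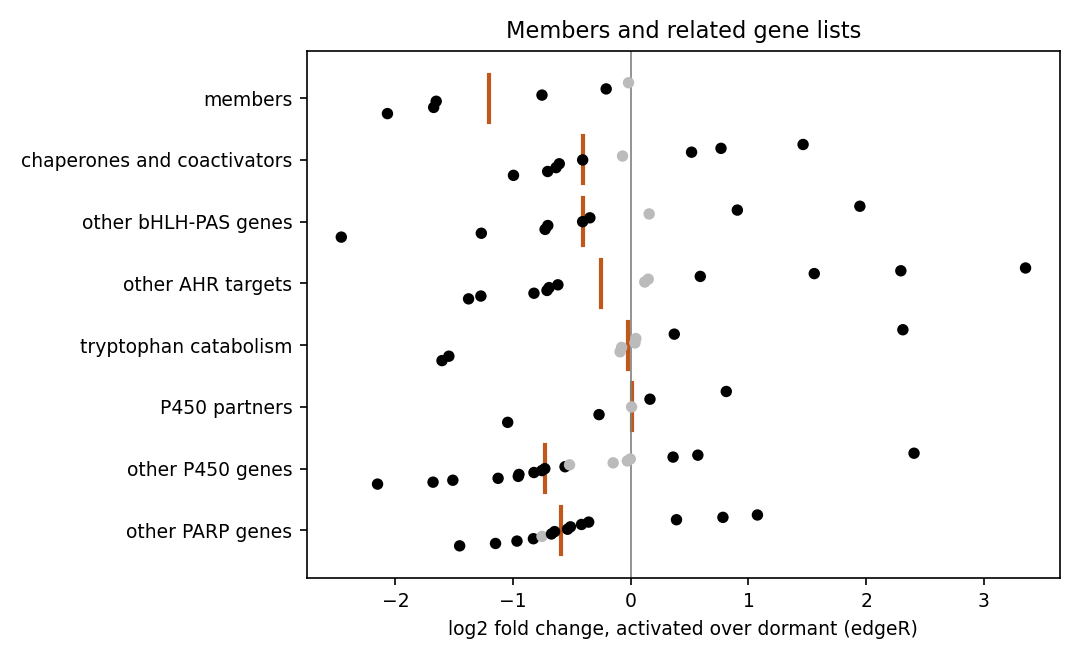
Log2 fold change, activated over dormant, of the 6 members and of each tested gene in 7 related lists. CYP2S1 is shown under both other AHR targets and other P450 genes. Black points passed an adjusted p of 0.05 in edgeR, grey points did not, and orange lines are medians; the median of the members, -1.20, lies left of the medians of the other lists, and the lists hold both rises and falls.

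The genes most like each member over the 6 libraries were found by Pearson's r of log2 CPM among the 11625 genes whose log2 CPM averaged 1 or more. With 2 groups such values mostly follow the group difference, and CYP1A1 was too low to be included. For AHR they were ANKRD40 and MAFG (r = 0.9998 each), and 7.48% of genes had an r over 0.99. For AHRR they were BCAR1 (0.9998) and MAX (0.9997), with 4.14% of genes over 0.99. For TIPARP they were TTC14 (0.9997) and KDM3A (0.9995), with 4.46% of genes over 0.99. MAFG, a small MAF protein, fell 2.43-fold and MAX, the partner of MYC, 1.70-fold, while ANKRD40 fell 1.29-fold and BCAR1 1.40-fold. A high r thus does not mean a change of equal size. ARNT was closest to AUTS2 (0.9854) and ZNF654 (0.9704), and CYP1B1 to KLHL36 (0.9891). No gene had an r over 0.99 with ARNT or CYP1B1.

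Total counts per library ran from 34128471 to 36667725. Of 11 listed epithelial and A549 genes, 10 were tested, 6 rose and 2 fell (5 and 4 with total counts). The rises included both listed cadherins, CDH1 (log2 fold change 1.24) and CDH2 (0.88). ALDH1A1 had the largest rise (log2 fold change 2.29), and the falls were those of EPCAM (-1.07) and KRT7 (-0.17). The call of KRT7 ended in 4 of the 6 fits that left out 1 library (activated replicate 2 or 3, or dormant replicate 1 or 3), with log2 fold changes of -0.16 to -0.11 there. The keratins KRT8 and KRT18 were abundant in both groups. EPCAM was low in both, at 0.611 ± 0.185 CPM in activated cells and 1.28 ± 0.513 CPM in dormant cells. Its groups overlapped in CPM, though not in FPKM, and its edgeR quasi-likelihood adjusted p was 0.0324. SFTPC had 2 counts in all. Of 14 osteoclast markers, 10 were tested, 3 rose and 5 fell. With total counts, upper-quartile scaling or the length correction, 6 fell. Their summed level was 601 to 682 CPM in activated and 371 to 397 CPM in dormant libraries. ITGB3 had the largest rise (log2 fold change 5.49). Without it the sum was 372 CPM in each activated library and 366 to 391 CPM in dormant libraries. Most of this remainder came from TCIRG1, which rose, and CLCN7, which fell. TCIRG1 had 197 ± 2.50 CPM in activated cells and 67.8 ± 1.48 CPM in dormant cells. CLCN7 had 151 ± 3.31 CPM in activated cells and 254 ± 12.8 CPM in dormant cells. The similar sums thus hold changes in opposite directions. NFATC1 fell (-0.86), and ATP6V0D2, named after its values were seen, had 7 counts in the activated group and 2164 in the dormant group. MMP9, which rose, passed the low-count filter through the activated libraries alone, and ATP6V0D2 and ACP5, which fell, through the dormant libraries alone. Of 14 myeloid markers, all 6 tested rose (4 with total counts and 5 with the length correction). Of these, CSF1R and LAPTM5 reached the filter only through the activated libraries. CD14 had a log2 fold change of 3.07, and the sums over the list were 178 to 187 CPM in activated and 143 to 159 CPM in dormant libraries. Most of each sum was CD68, at 152 ± 3.82 CPM in activated cells and 135 ± 5.75 CPM in dormant cells. DCSTAMP, OCSTAMP, CALCR, TYROBP, AIF1, C1QA, C1QB and C1QC had 0 counts in every library. The part of these markers in the results above was not tested.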

How the data were processed

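RNA of A549 cells was sequenced in 3 activated and 3 dormant libraries. Total RNA was extracted with TRIzol and libraries were made with a VAHTS Universal V6 kit, per the labels' protocols. The count table deposited by the authors holds whole-number counts per gene symbol, and the deposited FPKM table holds the same counts per gene length and total count. The submitters' processing notes name HTSeq, HISAT2, fastp and build GRCh38, without versions, annotation or strand setting.

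Counts were tested with edgeR 4.0.16 (quasi-likelihood, TMM factors, default filter on low counts, R 4.3.3), with Benjamini-Hochberg adjustment over all 13336 genes tested. Each standard error is |log2 fold change| over the root of edgeR's F statistic. The code was first tested on simulated data. Replicates are separate libraries, and nothing says they came from separate cultures, so the p-values reflect spread among libraries alone, which may be technical. Pairs within a group differed by more than sampling noise (chi-square per degree of freedom 4.87 to 22.5), so each was counted once.

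The members and gene lists were chosen with earlier results of these data known. Genes outside the 6 members were named by rule: of each list, the largest rise and largest fall among called genes averaging 1 or more in log2 CPM, the 2 genes most like each member, and HIF1A, ARNT2, CYP1A2, NQO1 and ALDH3A1. EPCAM, SFTPC, KYNU, IDO1, KRT8, KRT18, MMP9, ACP5, CSF1R, LAPTM5, TCIRG1, CLCN7, CD68, CDH1, CDH2, CYP2S1 and markers at 0 were named after their values were seen. Some genes are not reported here. Gene positions are 1-based, from RefSeq GRCh38.p14. Alternatives were other scalings, DESeq2 1.42.0, limma 3.58.1 (voom, or log2 FPKM), other filters, a replicate block, leaving out each library, and a loess on gene length.

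Exons in GENCODE 29 (GRCh38) overlap other genes for AHR (AC019117.2, 2373 bases, same strand), AHRR (PDCD6, 244 bases, same strand), TIPARP (37 bases, antisense) and CYP1B1 (CYP1B1-AS1, 678 bases, antisense). Reads there may be lost or shared, depending on the counting.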

Additional observations from a re-analysis of the deposited data

How the results depend on the processing

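The number of members called was between 4 and 6, all lower, under every alternative run. AHR, AHRR, TIPARP and CYP1A1 kept their direction and their call under every alternative that tested them. AHR lay between -1.79 and -1.55, AHRR between -2.21 and -1.11, TIPARP between -0.90 and -0.72 and CYP1A1 between -1.81 and -0.44, where the smallest values of AHRR and CYP1A1 came from log2(FPKM + 1), which understates changes of low genes by construction. CYP1A1 was not tested where a mean of 0.5 FPKM was required. Without 1 library, CYP1B1 lay between -0.29 and -0.13, and after the length correction at -0.13, no longer called. ARNT lay between -0.071 and 0.042 without 1 library, at 0.044 with the length correction and at -0.16 with total counts, which called it. The cause was not tested.

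Leaving out 1 library moved the log2 ratio of CYP1A1 to AHR, -0.04, to between -0.17 and 0.16, so its sign is not resolved. Among 31 other named genes, 540 of 558 values kept direction and side of the threshold. Counts in the related lists moved too. Total counts or the length correction gave 6 falls among chaperones and coactivators and 3 in tryptophan catabolism. Total counts gave 11 falls among PARP relatives, and 2 rises and 11 falls among other P450 genes. The length correction gave 5 rises among other AHR targets and 9 falls among other P450 genes. AUTS2 lay between -0.091 and 0.043 without 1 library and at 0.16 with the length correction, ZNF654 between -0.14 and 0.070 without 1 library and at 0.093 with the length correction, and KLHL36 at 0.0028 with the length correction, none of them called there. KLHL36 was called lower in 5 other alternatives, with total counts (-0.27), without activated replicate 2 (-0.18) and in the 3 fits of log2 FPKM (-0.26 to -0.24). A replicate block called 9789 genes and 5 members, against 9830 and 5 without it. Deviations of libraries sharing a number correlated at -0.0152, 0.0190 and -0.00572, and the libraries were treated as unpaired. Over all alternatives 9109 to 10009 genes were called. Depth limits CYP1A1, with 12 to 59 counts per library.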
